A study of Mus musculus with 16 samples.

Results

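The genes described here are 10 cytokine genes of dendritic cells (DCs): the chains of the IL-12 family (Il12a, Il12b, Il23a, Il27 and Ebi3), Il15, and the inflammatory and regulatory cytokines Il6, Tnf, Il1b and Il10. They were taken by symbol from expression tables of sorted DCs, after gene IDs had been matched to mouse symbols. All 10 were found both among the 17128 genes of the table for plasmacytoid DCs (pDCs) and among the 17721 genes of the table for conventional DCs (cDCs). The libraries came from the spleens of C57BL/6 mice aged 6 to 8 weeks, without any stimulus, infection or drug. WT mice carried Trim33 fl/fl (floxed alleles of Trim33, a chromatin-associated regulator of transcription), and conditional knockout (cKO) mice carried Trim33 fl/fl with Itgax-Cre, so WT animals also held the floxed alleles but no Cre. Itgax encodes CD11c and its promoter drives Cre in cells that express CD11c, DCs above all. pDCs (CD11c+ SiglecH+) gave 3 WT and 3 cKO libraries. Among CD11c+ SiglecH- cells positive for MHC II, cDC1s were sorted as CD24+ CD172a- (2 WT and 2 cKO libraries) and cDC2s as CD172a+ CD24- (3 and 3). Every library was made from several pooled mice, with more cKO than WT mice per library. The question addressed is which of these cytokine transcripts depend on TRIM33 in which DC subset.

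Cytokines of the IL-12 family are made of paired chains that are encoded by separate genes and shared between cytokines. IL-12 is the product of Il12a and Il12b, IL-23 that of Il23a and Il12b, IL-27 that of Il27 and Ebi3, and IL-35 that of Il12a and Ebi3. IL-12 from DCs, in particular from cDC1s, drives IFN-γ production by T and NK cells, and IL-15, presented on the IL-15 receptor α chain, maintains NK cells and memory CD8+ T cells. TNF, IL-1β and IL-6 are early inflammatory mediators whose genes respond within a short time to NF-κB, and IL-10 restrains inflammation. A transcript level says nothing of secretion: IL-1β needs cleavage by caspase-1, and TNF needs shedding from the membrane.

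Expression is given as TPM, a share of all transcripts that is scaled for transcript length, so levels of different genes can be set side by side within a table. The 2 tables were normalised separately, and no test was made between pDCs and cDCs. Sequencing depth, estimated from the spacing of the lowest deposited values, was 17.98 to 20.16 M reads per library. At that depth 3 reads were worth 0.15 to 0.37 TPM for the 10 genes, a limit that covers counting error only, since PCR copies of 1 molecule cannot be told from separate molecules. Replicates of a group correlated at r = 0.981 to 0.994 across genes, which are not independent replicates. Trim33 itself lay at 15.5 to 23.8 TPM in WT and at 7.13 to 16.5 TPM in cKO libraries, below every WT library of the same subset in each case. The 10 pDC markers summed to 18279 to 20178 TPM in the 6 pDC libraries and to 160 to 306 TPM in the cDC libraries. The 10 cDC1 markers summed to 2321 to 2917 TPM in cDC1s and to 405 to 594 TPM in cDC2s, and the 10 cDC2 markers to 1984 to 2631 TPM in cDC2s and to 81.5 to 99.6 TPM in cDC1s. In the pDC libraries the cDC1 markers summed to 368 to 528 TPM and the cDC2 markers to 2084 to 2398 TPM. The cDC2 list thus sets cDC2s apart from cDC1s but not from pDCs. One WT cDC2 library, number 1, stood apart from its replicates, with 23865 TPM over 15 immediate-early genes against 8757 and 10708 TPM in the other 2.

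The level of each cytokine gene was compared across the 6 groups. Ebi3 and Tnf were present in all subsets, Il12a in pDCs, and Il12b, Il15, Il1b and Il27 in cDCs. Ebi3, the soluble-receptor-like chain of IL-27 and IL-35, was the most even of them: its group means were 58.3 ± 2.34 TPM (SD, n = 3) in WT and 52.4 ± 3.04 (SD, n = 3) in cKO pDCs, and lay between 97.9 and 112 TPM in the 4 cDC groups. Its partner Il27 was far lower, with group means of 3.04 to 4.54 TPM in the cDC groups. In all 6 pDC libraries Il27 lay under the level of 3 reads.

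The chains of IL-12 were found in different cells. Il12a ranged from 3.47 to 15.6 TPM in the 6 pDC libraries, whereas in all 10 cDC libraries it was at 0 to 0.18 TPM, under the level of 3 reads. Il12b showed the opposite distribution, with 2.76 to 100.8 TPM in the cDC libraries and 0 to 0.40 TPM in the pDC libraries. Il23a, the IL-23 partner of Il12b, did not exceed 0.53 TPM in any library. No sorted population therefore held Il12a and Il12b transcripts together above 1 TPM.

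**Figure D1:**
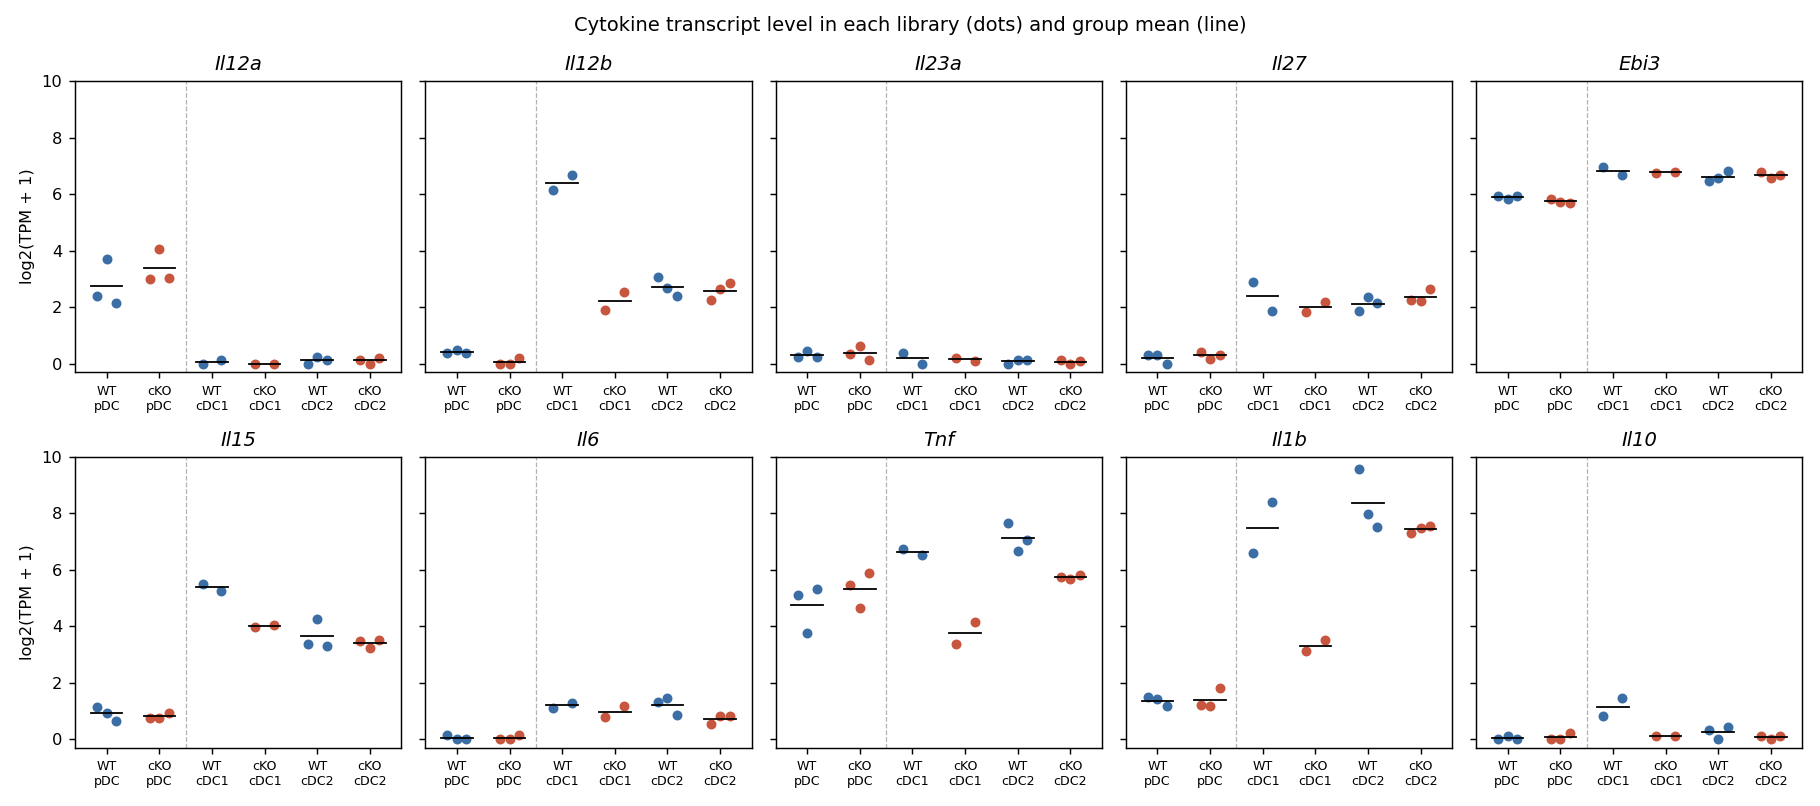
Level of the 10 cytokine genes as log2(TPM + 1), one panel per gene. Dots are libraries in the order of their numbers (WT blue, cKO red), lines are group means on that scale, and the dashed line separates the pDC table from the cDC table. Il12b stands high in the 2 WT cDC1 libraries only, and Tnf and Il1b are lowest among the cDC libraries in the 2 cKO cDC1 libraries.

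In TRIM33-deficient cDC1s the transcripts of Il12b, Il1b, Tnf and Il15 fell. Il12b (gene ID 16160, chromosome 11, 44400063 to 44414677, GRCm38.p6) encodes the p40 chain shared by IL-12 and IL-23. Its values were 69.8 and 100.8 TPM in the WT and 2.76 and 4.82 TPM in the cKO cDC1 libraries, so that the groups lay far apart. The means of 85.3 ± 21.9 and 3.79 ± 1.46 TPM (SD, n = 2 each) differed 22.5-fold, and the log2 fold change of cKO over WT on the log2(TPM + 1) scale was −4.18 (SE 0.29, limma adjusted p 1.58e-05). Genes are named as called where the adjusted p was 0.01 or lower and the log2 fold change 0.5 or more in size. In bulk samples, fewer cells with a transcript and less of it per cell cannot be told apart.

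Il1b (gene ID 16176, chromosome 2, 129364569 to 129371164), the gene of IL-1β, was at 94.6 and 335 TPM in WT and at 7.79 and 10.3 TPM in cKO cDC1s. The WT libraries differed widely from each other, yet both lay above both cKO libraries. The log2 fold change was −4.17 (SE 0.64, limma adjusted p 8.89e-04). Without cKO cDC1 library 1 the value was −3.99 and the call was lost (limma adjusted p 0.0118).

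Tnf (gene ID 21926, chromosome 17, 35199367 to 35202007) was at 107 and 90.2 TPM in WT cDC1s. In cKO cDC1s it was at 9.38 and 16.6 TPM, 13.2% of the WT mean. The log2 fold change was −2.87 (SE 0.30, limma adjusted p 1.28e-04), and it was called under each of 19 alternatives, with adjusted p values of 6.06e-05 to 0.00221.

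Il15 (gene ID 16168, chromosome 8, 82331624 to 82403252) was at 44.6 and 36.9 TPM in WT and at 14.8 and 15.4 TPM in cKO cDC1s. The change was smaller than that of the other 3 genes, with a log2 fold change of −1.37 (SE 0.27, limma adjusted p 0.00302). Leaving out cKO library 1, cKO library 2 or WT library 1 of the cDC1s moved the adjusted p of limma to 0.0269, 0.0194 and 0.0261 with the direction kept.

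Of the 10 genes, 7 had the mean of at least 1 TPM over the 10 cDC libraries that was required for testing, and 4 of them were called lower and 0 higher in cKO cDC1s. Over all 11411 genes tested, 6.56% were called lower. The median log2 fold change was −1.37 over the 7 genes and 0.17 over all genes. Scaling by medians of ratios moved the median of all genes to 0.02 and the calls from 1806 higher and 749 lower to 1067 in each direction, and all 4 cytokine genes stayed called.

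The other 3 tested genes did not pass the threshold in cDC1s. Ebi3 was at 124.6 and 99.96 TPM in WT and at 107.6 and 107.8 TPM in cKO cDC1s, with a log2 fold change of −0.05 and a 95% interval of −0.38 to 0.27. The intervals were −1.07 to 0.32 for Il27 and −0.74 to 0.29 for Il6. The chains of IL-27 thus lay within ranges that overlapped between the genotypes, and for Ebi3 the interval leaves out a change of the size seen in Il12b.

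Il10, the gene of the anti-inflammatory cytokine IL-10, had a mean of 0.34 TPM over the cDC libraries and was left out by the filter. It was at 0.78 and 1.72 TPM in WT cDC1s, or about 10 and 22 reads, and at 0.08 TPM in each cKO cDC1 library, or about 1 read. The groups did not overlap. In a fit with no filter on low values, where 3.59% of 17718 genes were called lower, it had a log2 fold change of −1.03 (SE 0.19, limma adjusted p 0.00589), which is called. At these read numbers the size of that change depends on the pseudocount.

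**Figure D2:**
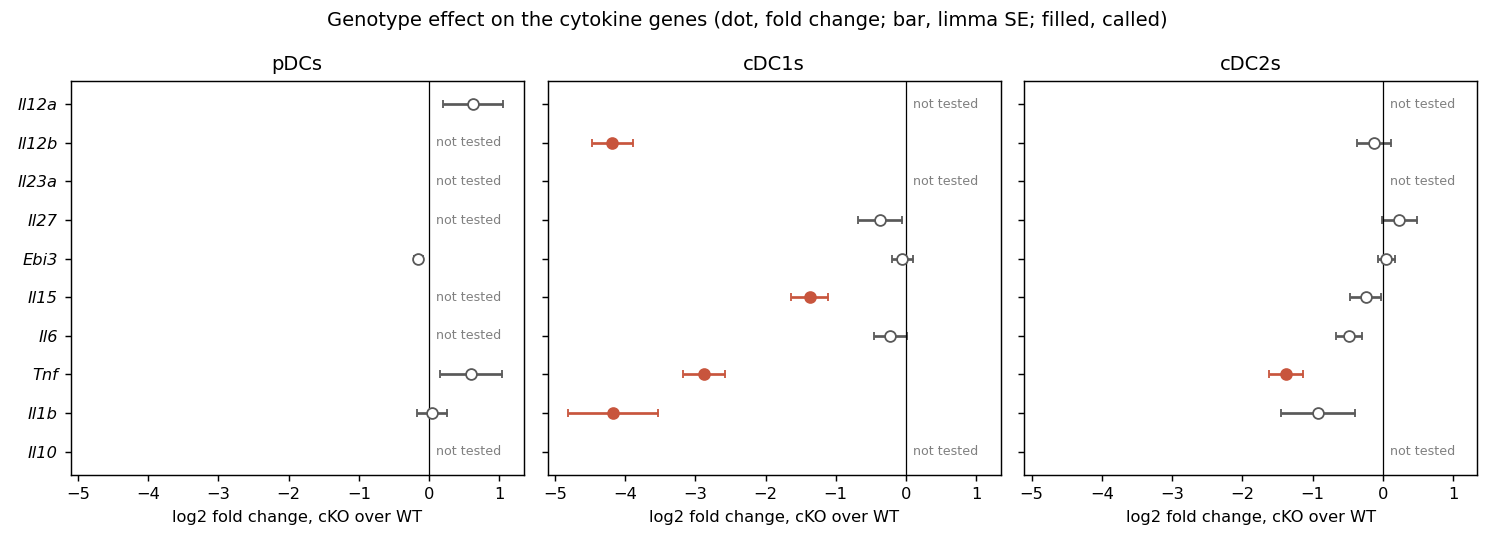
Log2 fold change of cKO over WT (x axis) for each cytokine gene (y axis) in pDCs, cDC1s and cDC2s. Bars are limma standard errors, filled red dots passed the threshold, and genes under the filter are marked as not tested. Il12b (−4.18), Il1b (−4.17), Tnf (−2.87) and Il15 (−1.37) are filled in cDC1s, and Tnf (−1.38) in cDC2s.

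In cDC2s, 1 of the 7 tested genes was called lower and 0 higher, where 3.56% of all tested genes were called lower. Tnf was at 200.4, 100.2 and 132 TPM in the WT and at 52.0, 50.1 and 55.6 TPM in the cKO libraries, without overlap. Its log2 fold change was −1.38 (SE 0.24, limma adjusted p 0.00443). The call was close to the threshold: the adjusted p was 0.0132 with no filter on low values and 0.0163 to 0.0183 when any cKO cDC2 library was left out.

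Il12b did not pass the threshold in cDC2s, with 7.32, 5.34 and 4.26 TPM in WT and 3.72, 5.21 and 6.24 TPM in cKO libraries. The groups overlapped, and the 95% interval of the log2 fold change (−0.13) ran from −0.66 to 0.40. Il1b was at 758, 252 and 183 TPM in WT and at 155, 177 and 184 TPM in cKO cDC2s. WT library 1, which stood apart in its immediate-early genes, held the highest Il1b value of all libraries, and the lowest WT value lay within the cKO range. The log2 fold change of Il1b was −0.93 (SE 0.52, limma adjusted p 0.242), and it was −0.32 without WT library 1.

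Il6 was low throughout, at 1.52, 1.72 and 0.82 TPM in WT and at 0.47, 0.75 and 0.79 TPM in cKO cDC2s. Every cKO value lay below every WT value, by a narrow margin, and at about 5 to 18 reads per library. The log2 fold change was −0.48 (SE 0.19, limma adjusted p 0.103). Il15 in cDC2s (8.93 to 17.9 TPM in WT, 8.37 to 10.3 TPM in cKO), Il27 (2.60 to 4.14 and 3.61 to 5.22 TPM) and Ebi3 (86.5 to 113 and 94.2 to 109 TPM) overlapped between genotypes, and their log2 fold changes were −0.25, 0.24 and 0.05.

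Whether the effect of TRIM33 loss differed between the cDC subsets was tested directly, as the cDC1 effect minus the cDC2 effect. For Il12b the difference was −4.05 (SE 0.38, limma adjusted p 3.59e-04). It was the 1 of 7 genes called, where 1.35% of all tested genes were called in that direction (154 against 138 the other way, and 280 against 100 with median-of-ratios scaling), and it was called under each of 18 alternatives. The differences of Il1b (−3.24, SE 0.83, limma adjusted p 0.0360), Tnf (−1.49, SE 0.39, 0.0372) and Il15 (−1.13, SE 0.34, 0.0608) were of the same sign and did not pass the threshold. Without WT cDC2 library 1 that of Il1b was −3.85 and was called (limma adjusted p 0.00732), and without WT cDC2 library 2 that of Il15 was −1.43 and was called (0.00326). Il27 (−0.61), Ebi3 (−0.10) and Il6 (0.26) had adjusted p values of 0.325 to 0.726.

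The same libraries were then read across subsets within each genotype. Among WT cells, Il12b and Il15 were higher in cDC1s than in cDC2s, by 3.70 (SE 0.27, limma adjusted p 1.66e-06) and 1.74 (SE 0.24, 2.17e-04) on the log2 scale. These were 2 of the 7 tested genes, where 10.9% of all tested genes were called higher in cDC1s (1241 against 2371 lower, and 1815 against 1719 with median-of-ratios scaling). Among cKO cells neither passed the threshold: Il12b differed by −0.35 (SE 0.27, 0.318) and Il15 by 0.61 (SE 0.24, 0.0652). Il12b values of cKO cDC1s (2.76 and 4.82 TPM) were then within or just under the range of the 6 cDC2 libraries (3.72 to 7.32 TPM).

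Tnf and Il1b showed the reverse pattern. Among WT cells they did not differ between the cDC subsets beyond their spread, with differences of −0.49 (SE 0.27, limma adjusted p 0.161) and −0.87 (SE 0.59, 0.244). Among cKO cells both were lower in cDC1s than in cDC2s, with differences of −1.99 (SE 0.27, limma adjusted p 2.12e-04) and −4.12 (SE 0.59, 2.66e-04). These were 2 of 7 genes, where 13.8% of all tested genes were called lower in cDC1s. The lowest cKO cDC2 library held 155 TPM of Il1b, and the highest cKO cDC1 library 10.3 TPM. Il10 without the filter was also higher in WT cDC1s than in WT cDC2s (0.89, SE 0.18, limma adjusted p 0.00467), with 7.12% of genes called higher in that fit.

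**Figure D3:**
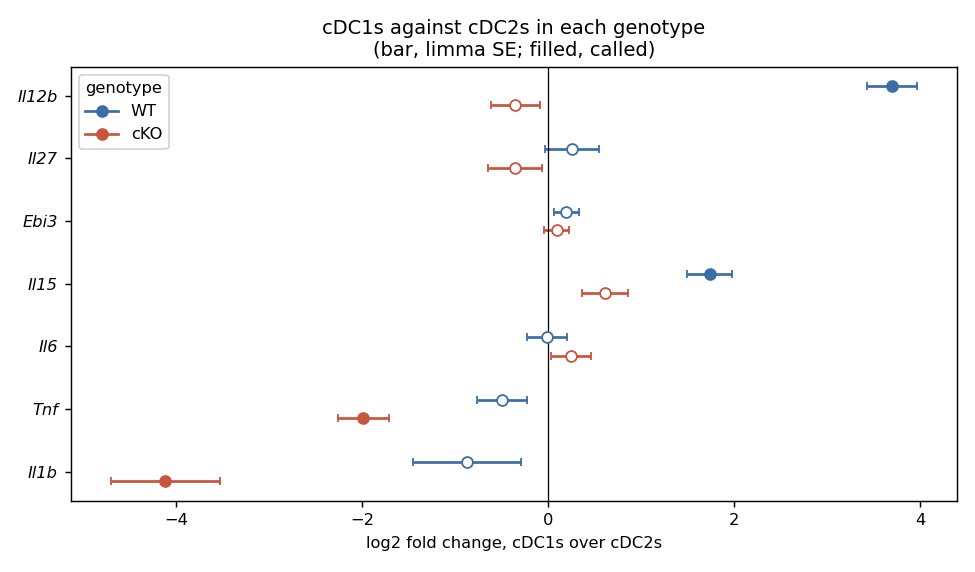
Log2 fold change of cDC1s over cDC2s (x axis) for the 7 tested cytokine genes (y axis), in WT (blue) and cKO (red). Bars are limma standard errors and filled dots passed the threshold. Il12b is at 3.70 in WT and −0.35 in cKO, and Il1b at −0.87 and −4.12.

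In pDCs, 4 of the 10 genes reached the mean of 1 TPM over the 6 libraries (Il12a, Ebi3, Tnf and Il1b), and 0 of them were called by limma, where 1.05% of 11299 genes were called. None of the 4 had an unadjusted p under 0.05 (count 0), beside 2352 of all 11299 tested genes. Trim33 itself was less reduced in cKO pDCs (11.7 to 16.5 TPM, against 20.6 to 23.8 TPM in WT) than in cKO cDCs. The part of this in the pDC counts was not tested. Il12a (gene ID 16159, chromosome 3, 68690644 to 68698550), the p35 chain of IL-12, was at 4.24, 11.9 and 3.47 TPM in WT and at 7.05, 15.6 and 7.23 TPM in cKO libraries 1, 2 and 3. Tnf was at 33.2, 12.7 and 39.4 TPM in WT and at 43.4, 24.0 and 57.9 TPM in cKO libraries. The groups overlapped for both genes, and the spread was shared by number: in each genotype library 2 was highest in Il12a and lowest in Tnf.

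Libraries of the same number were then compared as pairs. The study names no such pairing, and it was read from these data, Il12a and Tnf included. The paired values of these genes are thus not independent of that choice. Both genes were higher in the cKO library in 3 of 3 pairs. The share of all genes that moved in 1 direction in 3 of 3 pairs was not counted, so these pair counts have no background beside them. With the library number as a block, Tnf had a log2 fold change of 0.60 (SE 0.095) and was called (limma adjusted p 0.00880), where 2.30% of genes were called higher, and Il12a had 0.62 (SE 0.12, 0.0177). Without the block the same changes had SEs of 0.44 and 0.43 and adjusted p values of 0.487 and 0.458. An exact permutation test over 3 against 3 libraries without pairing cannot go below p = 0.10, and with 3 pairs that limit is higher. Ebi3 was lower in cKO in 3 of 3 pairs, by 0.15 on the log2 scale (−0.15, limma adjusted p 0.256 without and 0.134 with the block). Il1b, at 1.25 to 2.55 TPM, had a log2 fold change of 0.04 with a 95% interval of −0.45 to 0.53.

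The other genes were near the limit of detection in pDCs. Il12b was at 0.29, 0.40 and 0.30 TPM (about 4 to 6 reads) in WT and at 0, 0 and 0.14 TPM in cKO pDCs, without overlap. In the fit with no filter, which called 0.140% of genes in pDCs, its log2 fold change was −0.35 (SE 0.07, limma adjusted p 0.0643) and was not called. Il15 was at 0.58 to 1.22 TPM and Il23a at 0.09 to 0.53 TPM over the 6 libraries, with overlap of the genotypes. Il6, Il10 and Il27 were under the level of 3 reads in all 6. A difference in these 3 genes was not detectable in pDCs at this depth.

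Members of the group varied together in sets across the 10 cDC libraries. On the log2(TPM + 1) scale Il1b and Tnf had a Pearson r of 0.91, and Il12b and Il15 one of 0.86. Il15 had an r of −0.10 with Il1b and of 0.07 with Tnf, and Ebi3 had one of −0.50 with Il1b. These coefficients are descriptions over libraries that share 2 subsets and 2 genotypes. The genes with the most similar pattern to Tnf were Ier3 (r = 0.98), Ypel2, Tsc22d1, Adam23 and Egr1 (0.97), of which Ier3 and Egr1 are immediate-early genes. For Il1b they were Rgs1 (0.97), Cd80, Ccrl2, Cytip and Nfkbiz (0.96). Those closest to Il12b were Enpp5 (0.97), Adgrf5, Ltbp2, Esyt3 and Hsd17b11, and those closest to Il15 were Sned1 (0.98), Tmem39a, Creg1, Serpinb9 and Ptgis.

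The proximal promoters of Il12b, Tnf and Il1b, which fell together in cKO cDC1s, and of Ebi3, which did not pass the threshold, are shown as the 250 bases before the RefSeq transcript start (GRCm38.p6, written 5′ to 3′ on the strand of the gene). Capitals mark matches on either strand to the NF-κB consensus, the AP-1 motif TGANTCA, an ETS core with flank (GAGGAA), or an IRF motif (GAAANNGAA). They lie at chr11:44399813-44400062 (plus strand) for Il12b, chr17:35202008-35202257 (minus) for Tnf, chr2:129371140-129371389 (minus) for Il1b and chr17:55952373-55952622 (plus) for Ebi3. The Il1b window overlaps the gene span given above, which runs to 129371164, so it is not wholly upstream of that span.
Il12b: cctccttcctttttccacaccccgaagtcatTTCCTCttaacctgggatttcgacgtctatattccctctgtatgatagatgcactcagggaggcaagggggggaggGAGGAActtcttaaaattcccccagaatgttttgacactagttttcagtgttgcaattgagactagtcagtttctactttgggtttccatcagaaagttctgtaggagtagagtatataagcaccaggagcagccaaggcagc
Tnf: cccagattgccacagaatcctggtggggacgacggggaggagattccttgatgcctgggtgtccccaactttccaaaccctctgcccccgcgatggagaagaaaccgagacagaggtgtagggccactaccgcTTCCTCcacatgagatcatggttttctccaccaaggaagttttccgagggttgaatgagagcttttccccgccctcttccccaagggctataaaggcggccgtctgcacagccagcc
Il1b: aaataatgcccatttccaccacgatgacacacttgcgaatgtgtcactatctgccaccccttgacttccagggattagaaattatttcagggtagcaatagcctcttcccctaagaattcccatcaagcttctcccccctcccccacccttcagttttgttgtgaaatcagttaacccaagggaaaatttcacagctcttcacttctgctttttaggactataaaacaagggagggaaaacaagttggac
Ebi3: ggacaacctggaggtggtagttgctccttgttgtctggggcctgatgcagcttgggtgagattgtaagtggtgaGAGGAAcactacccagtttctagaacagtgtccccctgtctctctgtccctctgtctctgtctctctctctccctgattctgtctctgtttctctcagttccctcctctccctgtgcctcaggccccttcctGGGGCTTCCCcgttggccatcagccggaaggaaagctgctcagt
The Il12b window holds 2 ETS matches, which begin 219 and 143 bases before the start, and the Tnf window holds 1, at 117 bases. The Ebi3 window holds 1 ETS match, at 176 bases, and 1 NF-κB match, at 44 bases, which reads as a match on both strands. Il1b holds no match to the 4 motifs in this window. The window of Il6, which also did not pass the threshold in cDC1s, is not shown. It holds an NF-κB match at 44 bases and an AP-1 match at 249 bases. Il12a, which was not tested in cDC1s, is not shown either. Among 27025 promoters of this length, 23.1% hold the ETS letters, 7.01% the NF-κB consensus, 6.87% the AP-1 letters and 7.16% the IRF letters. A match is a description of letters, and the absence of these letters in a window says nothing of a factor.

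Receptors of the 10 cytokines were examined next, as 16 genes of which 12 were tested in cDCs. In cKO cDC1s 4 were called lower and 0 higher, where 6.56% and 15.8% of all tested genes were called in these directions, and their median was −0.27. Il15ra, which presents IL-15 on the DC surface, fell most (log2 fold change −1.93, SE 0.29, limma adjusted p 7.61e-04), from 63.9 and 31.9 TPM in WT to 10.2 and 12.1 TPM in cKO libraries. Il15 and its presenting receptor chain were thus both lower. Tnfrsf1b (TNF receptor type 2, −1.28) and the IL-10 receptor chains Il10ra (−0.78) and Il10rb (−0.60) were the others called. With 1 library left out, 0 to 5 receptors were called lower, with 0 without cKO cDC1 library 1 and 2 without cKO library 2 or WT library 1. In cKO cDC2s Il1rap, the shared accessory chain of the IL-1 receptor, rose (0.80) and 0 of 12 fell, where 3.59% of all genes were called higher and 3.56% lower, and this call was lost when any cDC2 or any cKO cDC1 library was left out. In pDCs 0 of 13 tested receptors were called, where 1.05% of all genes were called. Of these 13, 3 had an unadjusted p under 0.05, beside 2352 of all 11299 tested genes.

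Among 14 genes for the processing, release and inhibition of IL-1 family cytokines and TNF, 3 were called lower and 1 higher in cKO cDC1s, where 6.56% of all genes were called lower and 15.8% higher. Mefv (pyrin, −1.81), Nlrp1b (−1.29) and Aim2 (−0.60), which encode inflammasome sensors, fell, and Casp1, the protease that cleaves pro-IL-1β, rose (0.64). The median of the list was −0.08, and with either cKO library left out 1 gene was called lower and 0 higher. In cKO cDC2s Il1rn, the IL-1 receptor antagonist, was the 1 of 14 genes called higher, beside 3.59% of all genes. It was at 9.59, 15.97 and 13.4 TPM in WT and at 42.0, 40.1 and 50.3 TPM in cKO cDC2s, a log2 fold change of 1.71 (SE 0.19, limma adjusted p 4.01e-04). In cDC1s it was under 0.5 TPM in all 4 libraries, too low for a change to be read there.

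Of 25 transcriptional and mRNA-decay regulators of cytokine genes, 4 were called lower and 1 higher in cKO cDC1s, beside 6.56% and 15.8% of all genes, with a median of −0.25. With 1 library left out 2 to 8 were called lower, with 2 without either cKO cDC1 library and 8 without WT cDC2 library 1. Nfkbiz (IκBζ, −2.46), Rel (c-Rel, −1.72) and Relb (−1.56) belong to the NF-κB pathway, and Zfp36l1 (−1.73) encodes a protein that promotes decay of AU-rich mRNAs. Nfkbiz was at 55.6 and 129 TPM in WT and at 13.9 and 15.4 TPM in cKO cDC1s. Nfkb1, named after its value was seen, was the 1 gene called higher (0.86). Irf8 and Batf3, which the study lists among factors required for cDC1 differentiation, were also named after their values were seen. Their log2 fold changes were 0.12 (limma adjusted p 0.796) and 0.06 (0.758). The cDC1 markers, given below, did not all hold their level. In cKO cDC2s Zfp36l1 (−1.21) and Irf4 (−1.08) were called lower, 2 of 25 beside 3.56% of all genes, with 0 higher, and 0 were called when any cKO cDC2 library was left out. In pDCs 0 of 24 were called, where 1.05% of all genes were called. Of these 24, 3 had an unadjusted p under 0.05, beside 2352 of all 11299 tested genes.

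Other cytokine genes were read in the same way. Of 34 listed, 14 were tested in cDCs, and their median was 0.10 in cDC1s and 0.05 in cDC2s. Clcf1 (−1.70), Ltb (lymphotoxin β, −0.78) and Il18 (−0.67) were called lower in cKO cDC1s (3 of 14, with 6.56% of all genes), and Clcf1 (−0.76) in cKO cDC2s (1 of 14, with 3.56% of all genes). The other 11 tested cytokine genes did not pass the threshold in cDC1s. With 1 library left out 1 to 4 were called lower in cDC1s, with 1 without cKO library 1 or WT library 1, and in 9 of 10 such fits 0 were called lower in cDC2s.

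Lists that mark the state of the cells moved with these results. Of 20 DC maturation genes, 16 were called lower (6.56% over all genes) and 0 higher (15.8%) in cKO cDC1s (median −2.25), among them Ccr7 (−4.37), Cacnb3 (−3.53), Ccl5 (−3.12) and Socs2 (−2.93), and 5 were called lower (3.56% over all genes) and 0 higher in cKO cDC2s (median −0.72). With 1 library left out the calls were 9 to 17 in cDC1s, with 9 without cKO library 1, and 1 to 6 in cDC2s, with 1 without cKO library 3 or WT library 2. Their summed level was 4776 and 3073 TPM in WT and 733 and 923 TPM in cKO cDC1s. It was 3110 to 3962 TPM in WT and 1753 to 2213 TPM in cKO cDC2s. WT cDC1 library 1 had a higher maturation sum than WT cDC1 library 2. Il12b and Il1b were lower in library 1 than in library 2. Tnf (107 against 90.2 TPM) and Il15 (44.6 against 36.9 TPM) were higher in library 1.

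Of 15 immediate-early genes, 7 were called lower (6.56% over all genes) and 0 higher in cKO cDC1s (median −1.55), and 3 lower (3.56% over all genes) and 0 higher in cKO cDC2s (median −1.24). With 1 library left out the cDC1 count was 3 to 11, with 3 without cKO cDC1 library 1 and 11 without WT cDC2 library 1. The cDC2 count was 1 to 7, with 1 without cKO cDC2 library 2 or 3, 6 without WT cDC2 library 1 and 7 without WT cDC2 library 3. Their sum was 7129 and 12060 TPM in WT and 4323 and 4711 TPM in cKO cDC1s. In cDC2s it was 8757 to 23865 TPM in WT and 5759 to 6463 TPM in cKO libraries, and Tnf and Il1b were highest in the library at 23865 TPM. In pDCs the sums overlapped, at 5015 to 6832 TPM in WT and 4376 to 5585 TPM in cKO libraries. The part of either list in the cytokine results was not tested.

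Markers of the subsets and of other cells were read beside them. Of the 10 cDC1 markers, 4 were called lower (6.56% over all genes) and 0 higher in cKO cDC1s. Those called were Itgae (−2.70), Cadm1 (−1.74), Clec9a (−1.33) and Ly75 (−0.99), and the median of the 10 was −0.75. The sum of the 10 was 2917 and 2805 TPM in WT and 2405 and 2321 TPM in cKO libraries, without overlap. With any 1 cDC1 library left out, 1 of the 10 was called lower. The pDC markers summed to 175 and 160 TPM in WT and to 266 and 271 TPM in cKO cDC1s. Of 9 tested there, 4 were called higher and 2 lower, Pacsin1 (−1.61) and Ccr9 (−0.97), beside 15.8% and 6.56% of all genes. In cDC2s the cDC2 markers summed to 2392 to 2631 TPM in WT and 1984 to 2184 TPM in cKO libraries, with 3 of 10 called higher and 3 lower (3.59% and 3.56% over all genes). The pDC markers summed to 212 to 247 TPM in WT and 282 to 306 TPM in cKO cDC2s, and both sums were without overlap. Of 9 tested pDC markers, 1 was called higher and 0 lower in cKO cDC2s (median −0.006). That gene, Cox6a2 (3.35), was also called higher in cKO cDC1s (3.53) and cKO pDCs (1.46). The 14 monocyte and macrophage markers summed to 460 and 727 TPM in WT and 524 and 495 TPM in cKO cDC1s, which overlap, while 3 were called higher and 2 lower, beside 15.8% and 6.56% of all genes. In cDC2s they summed to 1360 to 1856 TPM in WT and 2700 to 3481 TPM in cKO libraries, and 4 were called higher (3.59% over all genes), with Lyz2 (1.40) among them, and 0 without cKO cDC2 library 3. The 10 neutrophil markers summed to 4.87 and 21.1 TPM in WT and 26.15 and 45.9 TPM in cKO cDC1s, without overlap. In cDC2s they summed to 11.6 to 39.9 TPM in WT and 24.2 to 86.4 TPM in cKO libraries, which overlap. Of 6 tested, 0 were called in either subset, with medians of 1.43 in cDC1s and 0.80 in cDC2s. Ly6g was at 0 in all 5 WT cDC libraries. In pDCs the neutrophil markers summed to 12.8 to 34.1 TPM in WT and 34.6 to 142.3 TPM in cKO libraries, without overlap by a narrow margin. The monocyte and macrophage markers there summed to 5149 to 5806 TPM in WT and 5903 to 6133 TPM in cKO pDCs, without overlap. Of 12 tested, 0 were called, beside 1.05% of all genes, and 7 had an unadjusted p under 0.05, beside 2352 of all 11299 tested genes. T cell markers (5 with values) summed to 6.85 to 9.45 TPM in WT and 14.2 to 17.8 TPM in cKO pDCs, also without overlap. The part of any of these lists in the cytokine results, Tnf in cDC2s and pDCs included, was not tested. The sums of 7 NK cell markers did not exceed 8.06 TPM and those of the T cell markers did not exceed 30.1 TPM. B cell markers (7 with values) summed to 35.2 and 47.3 TPM in WT and 57.5 and 64.3 TPM in cKO cDC1s.

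**Figure D4:**
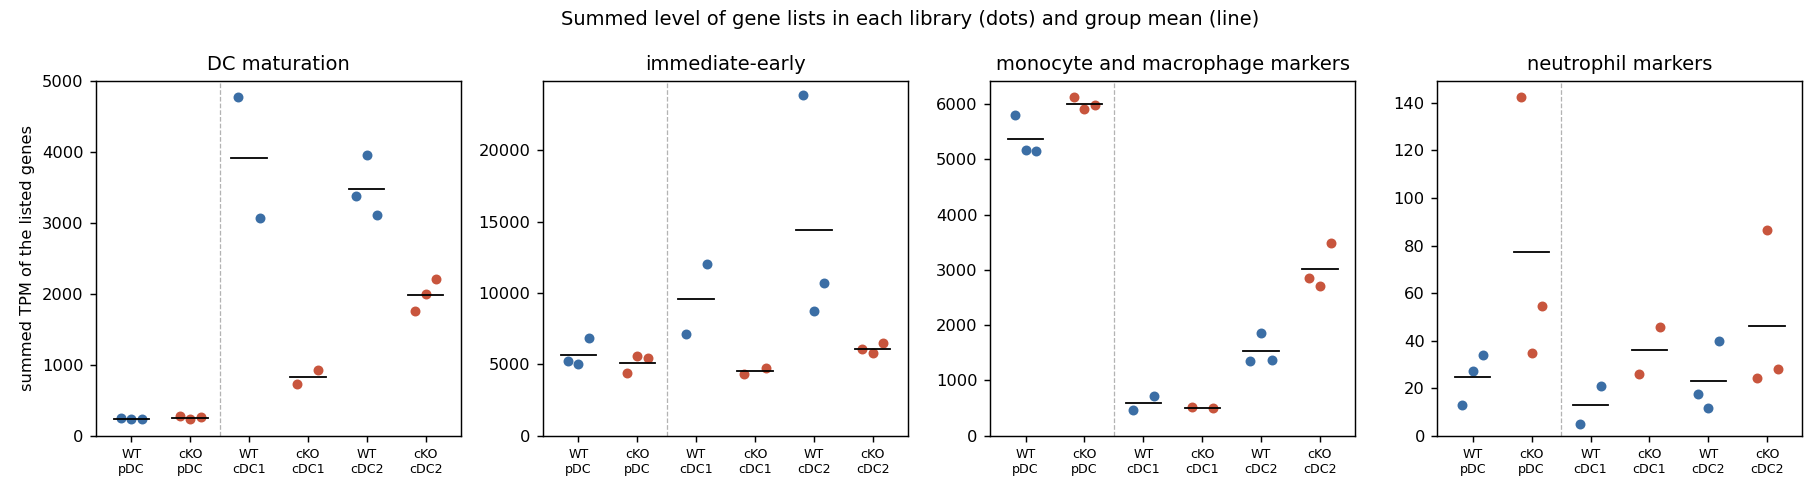
Summed TPM (y axis, from 0) of 4 gene lists in each library (dots; WT blue, cKO red) with group means (lines), by group (x axis). The maturation sum is 733 and 923 TPM in cKO cDC1s against 4776 and 3073 TPM in WT cDC1s, and the immediate-early sum reaches 23865 TPM in WT cDC2 library 1.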

How the data were processed

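RNA of sorted splenic DCs was sequenced as single-end 50-base reads on the BGISEQ-500. The authors filtered reads with SOAPnuke, mapped them with Bowtie2 2.2.5 and estimated expression per gene with RSEM 1.2.12 (per the labels and the study's methods; the transcript reference is not given in the sources used here). The authors deposited TPM in 1 table for pDCs and 1 for cDCs, together with FPKM of each library. The tables list different genes by a rule that is not stated. Groups came from sample titles, and all 32 value columns were mapped. RSEM shares reads of overlapping or similar transcripts among genes, and strand was not stated. Per the study's legends each library came from pooled mice, with more cKO than WT mice.

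Gene IDs were matched to NCBI RefSeq (GRCm38.p6), which named 17079 of 17128 and 17667 of 17721 genes. Values are not counts, so limma 3.58.1 in R 4.3.3 replaced the count model of the study (DESeq2), with the study's thresholds. Linear models were fitted to log2(TPM + 1) for genes that reached 1 TPM on average (lmFit, eBayes with trend, two-sided tests, Benjamini-Hochberg adjustment over all genes tested). The 6 pDC libraries and the 10 cDC libraries (4 group means, shared spread) were fitted separately. Fold changes on this scale understate those of low genes. Every adjusted p is from limma, and p-values measure only the spread between libraries. Fits were tested on simulated data. Alternatives were a pseudocount of 0.1, no filter, median-of-ratios and quantile scaling, FPKM, no trend, the replicate number as a block, and each library left out. The genotype effects in cDC1s and cDC2s were also fitted on the libraries of that subset alone. For these effects and their difference, a block with crossed cKO cDC1 numbers, added after seeing the data, is counted among the alternatives. An adjusted p of 0.05 with no fold limit was read for counts of calls only.

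The members and gene lists were chosen with earlier results of these data known. All 10 members are named, with up to 4 called genes with the largest changes per list and the 5 genes most correlated with each member called between genotypes. Deviations from group means of same-numbered WT and cKO pDC libraries correlated at r = 0.206 to 0.392, and those of different numbers at −0.285 to −0.0334, so pDC numbers were read as pairs from the data. The cDC numbers were not. Such deviations cancel within a group, so the negative pDC values follow in part from the positive ones. Depth was estimated from FPKM steps of genes with 1 transcript (Python 3.11.15, numpy 2.4.6, pandas 2.3.3). Plots were drawn with matplotlib 3.10.9. Read numbers are approximate. Promoter sequences are RefSeq's, and 6 of the 10 genes had an entry.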

Additional observations from a re-analysis of the deposited data

Results flagged for a closer look

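The effect of TRIM33 loss on Il12b differed between the cDC subsets by a test of the difference itself. The cDC1 effect minus the cDC2 effect was −4.05 on the log2 scale (SE 0.38, limma adjusted p 3.59e-04), with Il12b lower in 2 of 2 cKO cDC1 libraries than in both WT libraries and overlapping between genotypes in cDC2s. Over 18 alternatives the difference ran from −4.37 to −3.74, with adjusted p values of 2.42e-04 to 0.00371. Groups of 4 or more libraries, which a search for outlying libraries within a group would need, did not exist.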

How the results depend on the processing

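Il12b and Tnf in cDC1s were called under each of 19 alternatives, and the Il12b difference between the subsets under each of 18. The count of called cytokine genes in cDC1s (4) was 2 to 4 when 1 library was left out, with 2 without cKO library 1. In cDC2s (1) it was 0 to 1, with 0 without any of the 3 cKO libraries, and also 0 with no filter. In the difference (1) it was 1 to 2, and 3 at an adjusted p of 0.05 with no fold limit. Without WT cDC2 library 2 the cKO contrast of the cDC subsets held 3 in place of 2, with Il15 (limma adjusted p 0.00360). Over all genes, calls in pDCs (119) were 335 with the block, 24 with no filter, 56 without the variance trend, 514 at an adjusted p of 0.05 and 12 to 97 with 1 library left out. That threshold gave 4522 calls in cDC1s, 2274 in cDC2s, 1286 in the difference and 5557 and 5110 in the WT and cKO subset contrasts, against 2555, 816, 292, 3612 and 3230. Calls with 1 library left out were 800 to 2888 in cDC1s, 316 to 907 in cDC2s and 77 to 282 in the difference, and the block gave 145 in the difference. The cause of these shifts was not tested.

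With the replicate number as a block the count was 1 in pDCs (Tnf) in place of 0, and 0 in cDC2s in place of 1 (Tnf, limma adjusted p 0.0127), and the block changed no other call of these genes. The cDC numbers did not pair: same-numbered deviations correlated at −0.233 in cDC1s and from −0.249 to 0.253 in cDC2s. Crossing the cKO cDC1 numbers, added after seeing the data, gave 4, 1 and 1 called genes in cDC1s, cDC2s and their difference.

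Directions turned only in values that did not pass the threshold. Il1b in pDCs was −0.030 with quantile normalization and −0.17 to 0.16 with 1 library left out. Il6 in WT cDC1s over WT cDC2s, −0.01 as reported, was 0.0040 with a pseudocount of 0.1, 0.10 with median-of-ratios scaling, 0.25 with quantile normalization and 0.0070 with FPKM, and −0.19 to 0.073 with 1 library left out. With 1 library left out, ranges spanned 0 for Il12b (−0.28 to 0.047), Ebi3 (−0.033 to 0.16) and Il15 (−0.41 to 0.055) in cDC2s, Ebi3 (−0.21 to 0.11) and Il27 (−0.89 to 0.14) in cDC1s, Ebi3 in the difference (−0.26 to 0.055), and Il1b (−1.78 to 0.035) and Il27 (−0.25 to 0.77) in WT cDC1s over WT cDC2s. Where a library left out leaves 1 in its group, that library is assumed to vary like the other groups. With 2 or 3 libraries per group, and genes near 3 reads in Il6, Il10, Il23a and pDC Il12b, small changes could not be seen.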
